A study of Arabidopsis thaliana with 6 samples.

Results

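A set of 104 Arabidopsis genes was nearly uncounted in leaves of WT (Ler) and clearly counted in leaves of the *rse1-1* mutant. A gene was taken where each of the 3 Ler libraries held at most 3 raw counts and each of the 3 *rse1-1* libraries held at least 100. Of the 33602 gene rows counted, 108 met both limits. Of 5 genes left out by name (AT4G22070, AT2G45220, AT4G18990, AT3G60140 and AT3G12500), 4 met them, which leaves 104 members. The members were chosen by the raw counts of this same comparison, so the difference between the genotypes describes the choice and is not tested for them.

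The libraries were made from mRNA of the third and the fourth rosette leaves at 16 days after sowing (DAS), before yellowing could be seen, with 3 biological replicates of each genotype. Ler is the Landsberg *erecta* accession. *rse1-1* is a mutant of that accession, made with ethyl methanesulfonate, in which a C-to-T change places a premature stop codon in *RSE1* (AT5G22070), a gene of a glycosyltransferase-like family, and whose leaves senesce early. Both genotypes were grown in soil at 22 °C with 16 h light and 8 h dark, and the mutant is represented by this allele alone.

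Leaf senescence is an ordered end of leaf life in which chlorophyll is lost and nutrients leave the leaf. It shares many genes with the response to pathogens, which rests on receptors at the cell surface and inside the cell, on calcium channels and kinases behind them, and on transcription factors of the WRKY, NAC and MYB families. Downstream of these factors plants make oxidising enzymes and small defence molecules such as coumarins, indole nitriles and terpenoids.

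*RSE1* itself was lower in *rse1-1*. Its counts were 563, 552 and 667 in Ler and 290, 219 and 264 in *rse1-1*, with a log2 fold change of -1.47 (SE 0.0832, edgeR adjusted p = 5.33e-10). Libraries held 9960144 to 15244500 counts on genes, so that 3 counts, the upper 95% limit of a count of 0, are 0.195 to 0.304 CPM (counts per 1000000 counts of the library). Among leaf photosynthesis genes, 9 of 11 were called lower in *rse1-1* and 1 was at 0 in every library. Their summed level was 20925 to 22322 CPM in Ler and 11400 to 13427 CPM in *rse1-1*. Markers of root (8 genes, 2 at 0), flower and pollen (8 genes, 2 at 0) and seed (5 genes, 3 at 0) summed to at most 14.3 CPM in any library, and no member was among the marker genes. In whole leaves, more cells with an active gene and more RNA per cell cannot be told apart. The files give each read to a gene through a rebuilt Ler genome, and counts past the start of the chromosomes may not all lie on the right gene. Among 264 ribosomal protein genes past the first 5 Mb of a chromosome, 46.6% had a mean under 10 counts, against 12.8% of 78 within the first 5 Mb. Of the members, 24 lay in the first 5 Mb and 80 past it. Whether the counts of a particular member belong to it or to a neighbour was not tested.

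All 104 members were among the 16294 genes that passed the filter on low counts, and all were called higher in *rse1-1* by edgeR, as the rule makes them, against 38.8% of all genes tested. Their libraries did not overlap between genotypes, which holds for 40% of all genes tested in this direction. Levels in *rse1-1* above the limit of 100 counts were not fixed by the rule. The mean level of a member in *rse1-1* ranged from 10.1 to 147 CPM with a median of 26.8 CPM. Over all genes tested the median was 25.01 CPM. The rule's limit of 100 counts and the filter's minimum of 10 give these medians unlike floors, so they do not compare like sets. A mean over 100 CPM was reached by 12 members, over 50 CPM by 28 and over 20 CPM by 71. Together the members took 4810, 3756 and 4416 CPM in the 3 *rse1-1* libraries and 7.91, 7.28 and 11.2 CPM in the 3 Ler libraries. Levels per kb of annotated exon allow different genes to be compared, but less so where the annotated length is near that of a read. They ranged from 3.45 to 384 CPM per kb over the members, with a median of 17.7.

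**Figure D1:**
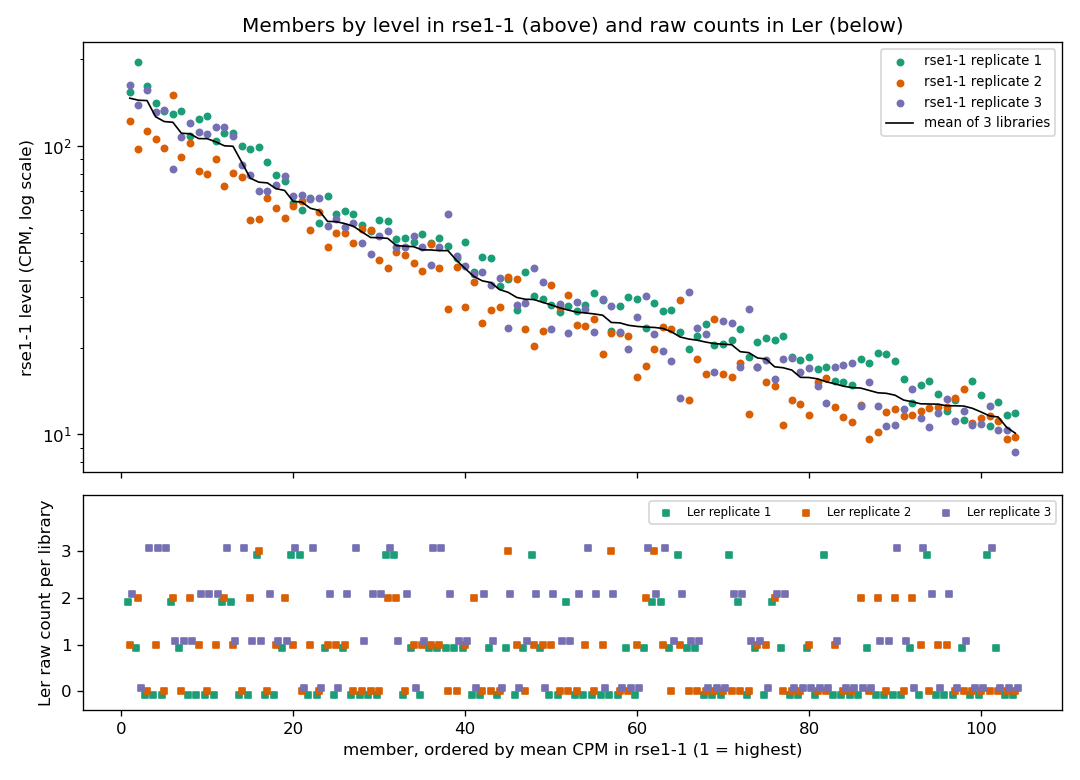
The upper panel plots the level of each of the 104 members in the 3 *rse1-1* libraries (CPM, log scale) in order of the mean, which is drawn as a line, and the lower panel plots the raw count of the same member in each Ler library. Means fall from 147 to 10.1 CPM, while Ler counts of 0 to 3 are met along the whole order.

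The few counts in Ler were spread over many members. No count in any Ler library was found for 16 members, a summed count of 1 for 14, of 2 for 24 and of 3 for 20, and the highest sum was 8. Members with at least 1 count numbered 47, 51 and 70 in Ler replicates 1, 2 and 3. The summed member counts were 78, 74 and 130 in the same order. The rule capped each of these counts at 3 whatever the depth of the library, so no order of the WT libraries is read from them. For scale, the salicylic acid marker gene *PR1*, which is no member, had 7, 17 and 59 counts in Ler replicates 1, 2 and 3 and 5601, 4115 and 5400 in *rse1-1*. For the 16 members with no Ler count, the mean of *rse1-1* was at least 35.3-fold to at least 209-fold higher than a floor of 3 counts per library. For the other 88 the ratio of pooled levels ran from 60.8 to 1798 with a median of 450, and the lowest end of any exact 95% interval was 27.7. The floor takes 3 counts in each library, while the ratios pool the counts of the libraries. Bounds and ratios are therefore unlike measures, and their sizes are not compared. These floors and intervals cover counting error only.

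The limits cut through a continuous range of genes. Just inside the lower limit of *rse1-1* stood AT1G26410 with 180, 100 and 130 counts, the mannanase gene *MAN1* with 273, 100 and 191, and AT3G46666 with 182, 101 and 109. Just outside it stood AT3G28510 with 244, 99 and 239, the phloem lectin gene *PP2-B8* with 147, 99 and 161, and the thaumatin-like gene AT5G40020 with 171, 97 and 169. A further group of genes missed the set through Ler alone. The summed Ler count was highest, at 8, for AT3G10320 (3, 2 and 3). It was 7 for 4 members, *XTH14* (2, 3 and 2), *GLR2.8* (3, 1 and 3), AT4G15610 (2, 2 and 3) and *NIT2* (3, 3 and 1). Left outside with 4 counts in the highest Ler library were 13 genes, among them the ethylene synthesis gene *ACS2*, with 2, 4 and 1 counts in Ler and 2367, 1096 and 1702 in *rse1-1*.

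Receptors, channels and kinases made up 13 members and 13.4% of the members' summed level in *rse1-1*. Glutamate receptor-like genes code for calcium-permeable channels of the plasma membrane. *GLR2.5* had 0, 0 and 3 counts in Ler and 2043, 1023 and 1677 in *rse1-1*, a mean of 122 ± 19.8 CPM (SD, n = 3) and a ratio of 1307 (95% interval 447 to 6341). *GLR2.8* had 981, 641 and 845 counts in *rse1-1* (64.4 ± 2.69 CPM), and its neighbour *GLR2.9*, with 2, 0 and 1 counts in Ler, had 429, 316 and 283 (27.0 ± 4.09 CPM). All 3 channel genes were thus counted well above the limit in each mutant library. Receptor like proteins carry leucine-rich repeats outside the cell and no kinase domain inside. *RLP20* had 0, 0 and 2 counts in Ler and 1352, 682 and 878 in *rse1-1* (74.6 ± 11.7 CPM). *RLP12* had 0, 0 and 1 in Ler and 820, 534 and 581 in *rse1-1* (50.4 ± 3.68 CPM). *RLP7* had no count in Ler and 429, 233 and 285 in *rse1-1*, which is at least 85.3-fold higher.

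Receptors of the inside of the cell were also among the members. AT4G11170, a resistance gene of the TIR-NBS-LRR class, had 0, 2 and 0 counts in Ler and 561, 348 and 451 in *rse1-1* (35.4 ± 1.48 CPM). AT5G45000, of the same class, had 855, 415 and 611 in *rse1-1* after 0, 0 and 2 in Ler. AT5G66900, a CC-NBS-LRR gene of the helper type that works behind other resistance proteins, had no count in Ler and 233, 119 and 219 in *rse1-1*, at least 51.4-fold higher. Of the kinases, *CRK38*, a cysteine-rich receptor-like kinase, had 3, 0 and 0 counts in Ler and 922, 668 and 847 in *rse1-1* (64.0 ± 3.80 CPM). *AGC2-1*, also known as OXI1, a kinase activated by hydrogen peroxide, had 1, 0 and 1 in Ler and 415, 240 and 225 in *rse1-1*. The leucine-rich repeat receptor kinase AT1G74360 was the lowest member per kb, at 3.45 CPM per kb, with 235, 128 and 133 counts in *rse1-1*. The remaining member of this class, the kinase-like AT3G46280, had 305, 136 and 393 counts.

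Transcription factors gave 5 members by their descriptions, and 3 of these had no Ler count. *NAC3* (ANAC055), a factor of jasmonate and abscisic acid responses, had 1, 1 and 2 counts in Ler and 1030, 463 and 663 in *rse1-1* (54.9 ± 11.2 CPM). *MYB15*, which acts on lignin and phenylpropanoid genes in defence, had 0, 1 and 3 in Ler and 433, 245 and 343 in *rse1-1*. *WRKY41* had none in Ler and 259, 157 and 185 in *rse1-1*, at least 54.5-fold higher. *WRKY62*, linked to salicylic acid and jasmonate signalling, had none in Ler and 229, 114 and 222 in *rse1-1*, at least 50.8-fold higher. *MYB119*, known from the female gametophyte, had none in Ler and 372, 167 and 281 in *rse1-1*. AT5G01380, a DNA-binding protein of the trihelix type that is annotated only as homeodomain-like, had 0, 1 and 0 in Ler and 331, 157 and 227 in *rse1-1*. *WRKY62* thus came nearest to the limit and *NAC3* stood farthest above it.

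Oxidative enzymes, a class set by words in the descriptions, were the largest described class, with 14 members and 19.9% of the members' summed level. The words also took in AT3G60150 and *MSRB8*, which are not described as oxidising enzymes. Receptors and kinases, with 13 members, were close in number. AT3G13610, known as the feruloyl-CoA hydroxylase that makes the coumarin scopoletin, had 0, 0 and 3 counts in Ler and 2490, 1170 and 1971 in *rse1-1*, a mean of 144 ± 26.8 CPM and a ratio of 1552 (95% interval 531 to 7528). The FAD-linked oxidase AT1G26380 takes part in the synthesis of indole carbonyl nitriles, and had 0, 1 and 3 counts in Ler and 2179, 1097 and 1655 in *rse1-1* (127 ± 18.3 CPM). It belongs to the FAD-binding Berberine family, of which 5 of 27 annotated rows were members. AT1G30710 had 1, 0 and 1 counts in Ler and 2045, 949 and 1356 in *rse1-1* (111 ± 20.7 CPM), a ratio of 1798 (95% interval 498 to 14854) that rests on 2 Ler counts. Its neighbour AT1G30700 had 1500, 573 and 999 in *rse1-1* (77.5 ± 21.1 CPM). AT1G26420 had 763, 381 and 560 counts, and AT1G26410 lay at the limit. These 5 oxidases thus ran from 10.6 to 127 CPM within a family. AT3G60150, annotated as an assembly factor of the NADH dehydrogenase complex, had 1, 2 and 0 counts in Ler and 3017, 1011 and 1749 in *rse1-1* (144 ± 49.4 CPM). It shares 249 bases with *ABCC9* on the other strand. *ABCC9* had 200, 232 and 250 counts in Ler and 1149, 751 and 1056 in *rse1-1*.

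Further oxidative members act on other substrates. *SRG1*, a gene named for its rise in senescence, had 0, 0 and 2 counts in Ler and 634, 252 and 461 in *rse1-1*. AT2G25450, known for the hydroxylation of a glucosinolate, had 630, 279 and 414 counts in *rse1-1*, and AT5G38710, known as a proline dehydrogenase, had 563, 240 and 358. *MSRB8*, a repair enzyme for oxidised methionine, had 784, 531 and 532 counts (48.2 ± 5.09 CPM). The peroxidase gene AT5G06730 had none in Ler and 210, 118 and 136 in *rse1-1*.

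Terpenoid enzymes gave 3 members, and a related enzyme stood in the oxidative class. *TPS04* makes geranyllinalool, and the cytochrome P450 *CYP82G1* turns it into a volatile homoterpene. *TPS04* had 2, 2 and 1 counts in Ler and 1992, 1555 and 1047 in *rse1-1*, which is 129, 150 and 83.4 CPM. *CYP82G1* had 0, 1 and 0 in Ler and 416, 357 and 352 in *rse1-1*, which is 27.0, 34.5 and 28.0 CPM. Both were highest in *rse1-1* replicate 2, unlike most members. The triterpene cyclase gene *LUP5* had 0, 2 and 1 counts in Ler and 1674, 1061 and 1506 in *rse1-1* (110 ± 8.76 CPM), and the lanosterol synthase gene *LAS1* had none in Ler and 503, 287 and 439 in *rse1-1*, at least 111-fold higher. *DXPS1*, annotated as an enzyme at the head of the plastid route to terpenoids, had 462, 226 and 249 counts.

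**Figure D2:**
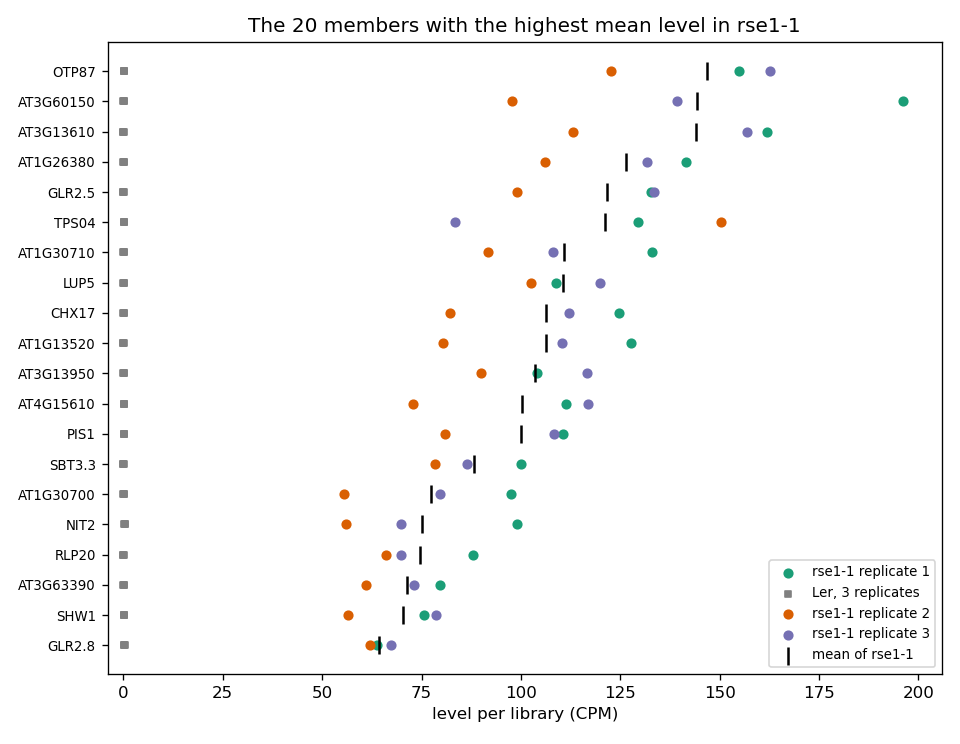
The plot gives the level in each library (CPM) for the 20 members with the highest mean in *rse1-1*, with coloured points for the *rse1-1* replicates, grey squares for the Ler replicates and a bar for the *rse1-1* mean. Ler points lie at the axis, and replicate 2 is the lowest mutant point for most of the 20, with *TPS04* as an exception.

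Enzymes that attach sugars, glutathione or acyl groups gave 6 members. *GSTU3*, a tau class glutathione S-transferase, had 1, 3 and 2 counts in Ler and 533, 364 and 295 in *rse1-1*, and *GSTU11* had 0, 1 and 0 and then 455, 164 and 322. *UGT73C6*, a glucosyltransferase of flavonols and brassinosteroids, had 281, 131 and 157 counts in *rse1-1*. Its annotated span lies within that of the RNA gene AT2G36792 on the other strand. AT2G36792 had 5, 2 and 0 counts in Ler and 42, 32 and 44 in *rse1-1*. *UGT73B4* had 213, 129 and 149, but its annotated span lies whole within that of *UGT73B5* on the same strand. *UGT73B5* had 14, 9 and 10 counts in Ler and 965, 567 and 717 in *rse1-1*, so reads of this pair are uncertain. The glycosyltransferase gene AT3G10320 was the highest of the class in count, with 847, 390 and 639.

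Carbohydrate and cell wall enzymes were also 6 members. *KOR2*, an endoglucanase, had 1, 1 and 0 counts in Ler and 714, 407 and 611 in *rse1-1* (44.8 ± 4.84 CPM). The beta-glucosidase genes *BGLU31* and *BGLU45* had 453, 237 and 425 counts and 277, 127 and 135 counts in *rse1-1*. *XTH14*, which cuts and rejoins xyloglucan, had 438, 204 and 280. All 6 lay between 12.5 and 44.8 CPM.

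Among 6 transporters, the cation/proton exchanger gene *CHX17* had 0, 1 and 2 counts in Ler and 1919, 849 and 1406 in *rse1-1* (106 ± 21.9 CPM). The efflux carriers AT2G04100 and *DTX1*, both of the MATE family, had 736, 391 and 560 counts and 286, 121 and 213 counts in *rse1-1*. The mitochondrial carrier *DIC3* had none in Ler and 278, 132 and 207 in *rse1-1*. The remaining members were the inositol carrier *INT2*, with 235, 129 and 216 counts, and the ABC transporter-like AT3G21080, with 360, 178 and 378. *CHX17* thus stood well above the other carriers, at 37.7 CPM per kb.

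Proteases and their inhibitors gave 5 members. *SBT3.3*, a secreted subtilase linked to immune priming, had 0, 0 and 3 counts in Ler and 1539, 809 and 1084 in *rse1-1* (88.2 ± 11.01 CPM). The metacaspase gene *MC8*, of a family tied to cell death, had none in Ler and 285, 136 and 232 in *rse1-1*, at least 58.5-fold higher. The other 3 had means of 11.5 to 12.6 CPM. Lipid genes gave 5 members, led by AT3G22600, a lipid transfer protein gene with 1, 0 and 1 counts in Ler and 630, 393 and 522 in *rse1-1* (40.2 ± 1.90 CPM). The lipase gene *GLIP4* had none in Ler and 203, 138 and 140 in *rse1-1*, and the patatin-type acyl hydrolase gene AT5G43590 had 451, 196 and 370.

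Signalling phosphatases gave a pair of members. AT1G07160, a protein phosphatase 2C, had 0, 1 and 2 counts in Ler and 434, 341 and 292 in *rse1-1*, and *5PTASE11*, an inositol phosphatase, had 413, 244 and 245 in *rse1-1*. *RNS1*, a secreted ribonuclease known from wounding and phosphate shortage, had none in Ler and 235, 113 and 135 in *rse1-1*.

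Members without a class in the word list numbered 26. *NIT2*, a nitrilase, had 3, 3 and 1 counts in Ler and 1525, 580 and 877 in *rse1-1* (75.0 ± 22.0 CPM). AT1G13520, of unknown function, had 0, 0 and 2 in Ler and 1966, 830 and 1387 in *rse1-1* (106 ± 24.0 CPM). The ankyrin repeat gene AT3G13950 had 0, 1 and 2 in Ler and 1600, 931 and 1464 in *rse1-1* (104 ± 13.3 CPM), and AT4G15610, of the UPF0497 family of membrane proteins, had 1713, 753 and 1467 (100 ± 24.0 CPM). *PYD4*, an aminotransferase, had 717, 287 and 484. *MEA*, a Polycomb histone methyltransferase known from the endosperm of seeds, had 0, 2 and 1 counts in Ler and 295, 105 and 157 in *rse1-1*. These genes have no single role in common.

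Some names in the set belong to genes with work in most living cells. *OTP87*, which edits mitochondrial transcripts, had 2, 1 and 2 counts in Ler and 2381, 1269 and 2043 in *rse1-1*, the highest mean of the set at 147 ± 21.1 CPM. *PIS1*, a phosphatidylinositol synthase, had 2, 1 and 1 in Ler and 1703, 836 and 1360 in *rse1-1* (100 ± 16.6 CPM). *EMB2453*, whose name marks a gene needed by the embryo, had 1, 0 and 1 and then 338, 189 and 294. All 3 lie past the first 5 Mb, on chromosomes 1 and 4. Of the 5 ribosomal protein genes nearest to each, 4 were well counted for *OTP87*, 3 for *PIS1* and 2 for *EMB2453*. Well counted means only a mean of at least 10 counts, which cannot show that reads lie on the right gene. A ribosomal protein gene beside a member moved in the same way: AT1G57660, next to AT1G57650, had 1, 3 and 4 counts in Ler and 1325, 717 and 1029 in *rse1-1*. *GSTU10*, which shares 21 bases with *OTP87*, had 105, 123 and 172 counts in Ler and 88, 65 and 51 in *rse1-1*.

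Pseudogenes and non-coding RNA made up 6 members, the other 98 being protein coding. The non-coding AT3G15536 had no count in Ler and 834, 613 and 830 in *rse1-1* (59.9 ± 5.96 CPM), at least 209-fold higher. That was the highest such bound among the 16 members with no Ler count. Per kb AT3G15536 reached 121 CPM per kb. AT1G53630 had 0, 1 and 3 counts in Ler and 1014, 531 and 821 in *rse1-1*. AT1G65485 had 1, 0 and 2 in Ler and 691, 282 and 729 in *rse1-1*. The pseudogene AT3G04717 lies 90 bases from the defence gene *PR4*, and had 0, 0 and 1 counts in Ler and 408, 285 and 356 in *rse1-1*. AT5G01732, a long non-coding RNA on the other strand of the actin regulator gene *SCAR4*, had 240, 120 and 154 in *rse1-1*. *SCAR4* itself had 342, 412 and 480 counts in Ler and 539, 386 and 387 in *rse1-1*. Of the 5 genes with no described product, AT3G46086 was the highest per kb of all members, at 384 CPM per kb over an annotated length of 117 bases.

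The other genes of the same classes moved both ways between the genotypes. Classes were set by words in the gene descriptions, and members were left out of these counts. Of 1207 other receptors and kinases tested, 613 (50.8%) were called higher in *rse1-1* and 398 (33.0%) lower, with a median log2 fold change of 0.26, against 38.8% higher and 38.3% lower over all genes. Of 492 other transcription factors, 231 (47.0%) were called higher and 149 (30.3%) lower. Of 887 other oxidative enzymes, 364 (41.0%) were higher and 345 (38.9%) lower. The split was the other way for 294 other carbohydrate and cell wall enzymes, of which 95 (32.3%) were higher and 132 (44.9%) lower, and for 1085 other genes of RNA and protein synthesis, with 246 (22.7%) higher and 552 (50.9%) lower. Conjugating enzymes (442 tested, 161 higher and 174 lower), transporters (654, 280 and 239), proteases and inhibitors (344, 133 and 137) and lipid genes (230, 100 and 88) lay nearer to the background. Of 15 other terpenoid enzymes, 7 were higher and 8 lower.

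Narrower families were also counted, 15 in all, picked because they hold members, and again with the members left out. Over all genes tested, 38.8% were called higher and 38.3% lower. Some families, such as the MYB domain proteins with 34.7% higher, lay near that share. Of 13 other Berberine family genes tested, 11 were called higher and 1 lower, with a median log2 fold change of 3.65. Of 41 other receptor like proteins, 31 were higher and 6 lower, with a median of 2.07. Of 35 other WRKY factors, 26 were higher and 5 lower, with a median of 1.58. Of 109 other resistance genes named by class, 76 were higher and 13 lower, with a median of 0.69. The UDP-glycosyltransferases of the same group as *UGT73B4* had 3 of 4 higher and 0 lower. Dioxygenases that use 2-oxoglutarate and iron (61 tested, 35 higher and 19 lower) and glutathione S-transferases (34, 17 and 10) followed. Glutamate receptors had 6 of 12 higher and 3 lower, with a median of 0.22. Counts were 12 higher and 8 lower of 24 beta-glucosidases, 15 and 11 of 30 MATE efflux carriers, 10 and 7 of 19 UPF0497 proteins, and 9 and 8 of 20 lipid transfer proteins. More genes were lower than higher among MYB domain proteins, with 17 of 49 higher and 20 lower, and among subtilases, with 9 of 27 higher and 14 lower. The only other serpin gene tested was not called.

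Members varied more among the *rse1-1* replicates than other genes of like level. The coefficient of variation over the 3 libraries had a median of 16.2% for the members, against 6.74% for the 9865 tested genes within the members' range of levels and 6.49% for the 4278 other genes called higher in that range. The spread followed the libraries. Replicate 2 of *rse1-1* was the lowest library for 70 members (67.3%) and for 50.5% of those other genes, and replicate 1 was the highest for 63 members (60.6%) and 43.2% of them. The level relative to the mean of the 3 libraries had a median of 1.11, 0.874 and 1.02 in replicates 1, 2 and 3 for the members and 1.02, 0.973 and 1.01 for the other genes. Replicate 1 was also the deepest library and replicate 2 the shallowest of the mutant, with 15244500 and 10360028 counts on genes. The rule asks for 100 raw counts in each library and so bears on the level in replicate 2. The part of depth in this spread was not tested.

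**Figure D3:**
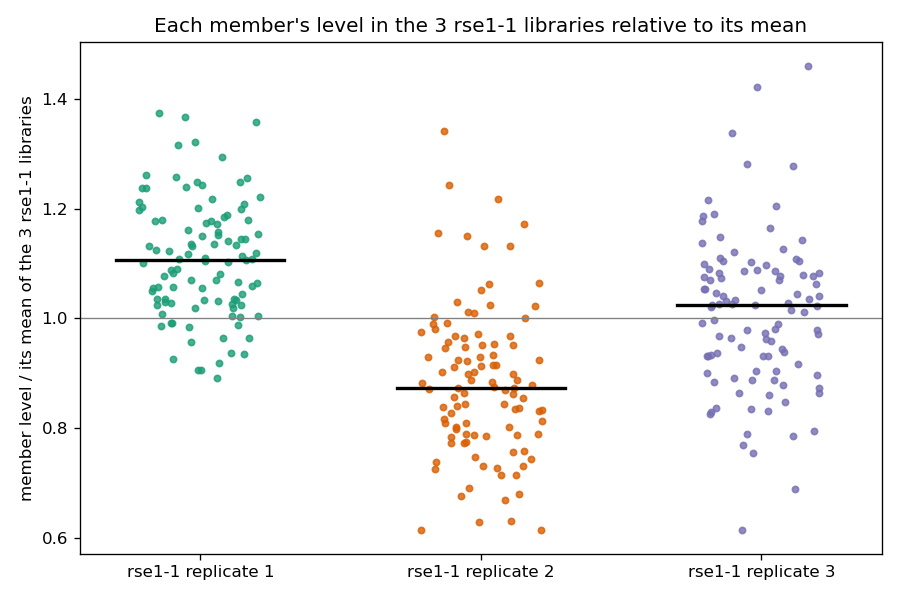
Each point is a member's level in an *rse1-1* library divided by its mean over the 3 *rse1-1* libraries, and the bars are medians over the 104 members. The medians are 1.11, 0.874 and 1.02, so replicate 2 lies lowest, with points on both sides of 1 in each library.

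Single members departed from this order. The highest of a member's 3 libraries was 1.37-fold above the lowest at the median and 2.38-fold at most. AT3G46280, with 19.8, 13.2 and 31.3 CPM, had the largest coefficient of variation at 42.8%, followed by AT3G28520 at 40.5% and the lipase gene AT1G54020 at 36.6%. The smallest were those of AT3G04717 (3.34%), *GLR2.8* (4.17%) and AT4G11170 (4.19%). Replicate 2 was the highest library for 10 members, among them *TPS04*, *CYP82G1*, *GSTU3*, *GLR2.9*, *GLIP4* and AT1G07160.

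Members lay on all 5 chromosomes. Chromosomes 1 to 5 held 33, 18, 28, 8 and 17 of them, beside 8331, 5438, 6612, 5072 and 7382 gene rows. The first 5 Mb of the chromosomes held 23.1% of the members, 21.9% of all gene rows and 26.1% of the genes called higher. Members there had a median of 23.6 CPM in *rse1-1*, and those past it 27.9 CPM. Among the 5 nearest ribosomal protein genes, 27 members had all 5 well counted and 33 had at most 2.

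Neighbouring members formed 6 pairs. On chromosome 1 these were AT1G26410 with AT1G26420, AT1G30700 with AT1G30710, and *GSTU11* with *SHW1*. On chromosome 2 they were *RLP20* with AT2G25450 and *GLR2.9* with *GLR2.8*, and on chromosome 3 the lipid transfer protein genes AT3G22600 and AT3G22620. In 4 of the pairs both genes belong to the same family. Between AT1G26380 and AT1G26410 lay AT1G26390, a further Berberine family gene with 2, 2 and 9 counts in Ler and 5364, 2547 and 3759 in *rse1-1*, and AT1G26400, with none in Ler and 3, 1 and 2 in *rse1-1*. The stretch thus held high and silent copies side by side.

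The nearest gene on each side was looked up for every member. Of 195 flanking genes that are neither members nor left out by name, 107 were tested, and 58 (54.2%) were called higher in *rse1-1* and 34 (31.8%) lower by edgeR, against 38.8% and 38.3% of all genes. The median log2 fold change of flanking genes was 0.38, against -0.0086 over all genes tested. With neighbouring members also counted as flanking genes, which the rule makes higher, at least 1 flanking gene called higher was found for 58 members. The like share over all genes was not counted. No count in any library was found for 46 flanking genes (23.6%), against 34.0% of gene rows. Of the flanking genes called higher, 10 had at most 3 counts in each Ler library and missed the set through *rse1-1*. An annotated overlap with a flanking gene was found for 20 members, mostly with the gene on the other strand. The strand setting of the counting is not given in the sources used here, so reads of such pairs cannot be told apart.

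The flanking genes with the highest levels in *rse1-1* included known genes of salicylic acid and jasmonate metabolism. *LOX2*, a lipoxygenase of jasmonate synthesis beside *LAS1*, had 463 ± 26.9 CPM in Ler and 1473 ± 167 CPM in *rse1-1* (log2 fold change 1.67, SE 0.0920, edgeR adjusted p = 3.96e-10). *DMR6*, a salicylic acid hydroxylase beside *BGLU31*, had 51.0 ± 7.43 and 500 ± 29.7 CPM (3.29, SE 0.0998, edgeR adjusted p = 6.26e-13). *GSTU2*, beside *GSTU3*, had 0.596 ± 0.604 and 350 ± 37.0 CPM (9.09, SE 0.213, edgeR adjusted p = 5.79e-14). *PR4* had 12.6 ± 5.49 and 342 ± 7.70 CPM (4.78, SE 0.174, edgeR adjusted p = 4.15e-12), and *NUDT6*, beside the pseudogene AT2G04460, had 68.7 ± 16.1 and 329 ± 40.9 CPM (2.26, SE 0.133, edgeR adjusted p = 8.02e-10). In contrast to the members, all of these but *GSTU2* were well counted in Ler.

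**Figure D4:**
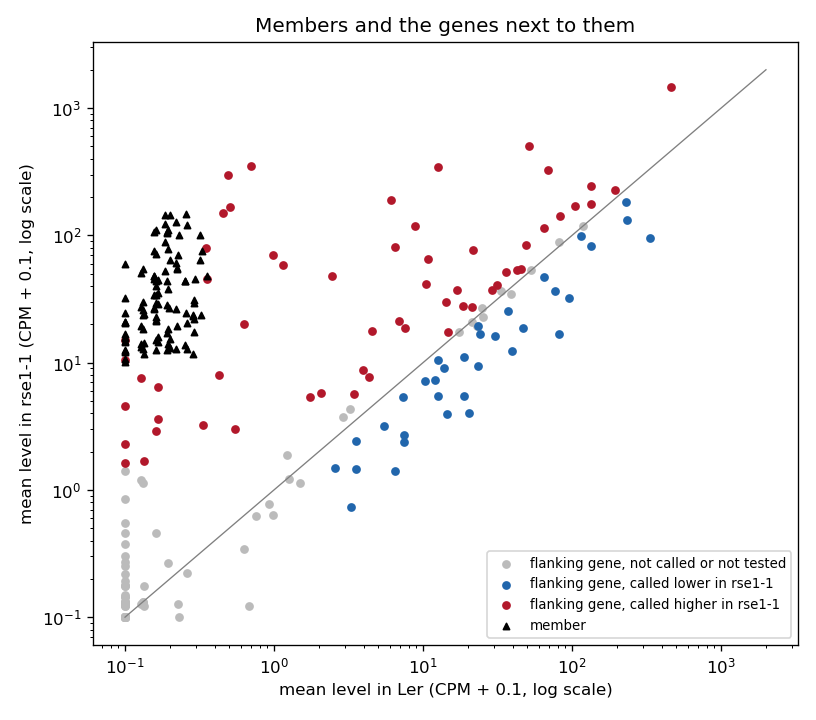
Mean level in Ler against mean level in *rse1-1* (both CPM + 0.1, log scales) for the members (triangles) and the genes next to them (circles, red where called higher, blue where called lower, grey where not called or not tested), with a line of equal levels. Members crowd at the left edge by the rule, and flanking genes lie on both sides of the line, 58 called higher and 34 lower.

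Promoter sequence was not used to choose the members. The core of the W-box, the site bound by WRKY factors, is TTGAC, read on both strands as TTGAC or GTCAA. In the 250 bases before the annotated start, 61 of 104 members (58.7%, exact 95% interval 48.6 to 68.2) held it at least once, and 36 (34.6%) at least 2 times. Of all 32834 gene rows with such a window, 44.5% held it at least once and 13.7% at least 2 times. For the 6187 other genes called higher the shares were 49.4% and 17.3%, and for the 6216 genes called lower 42.2% and 12.6%. Members in the first 5 Mb had it at least 2 times in 10 of 24 cases (41.7%) and those past it in 26 of 80 (32.5%). Of the 16 members with no Ler count, 10 (62.5%) held 2 or more. No test was made of these shares.

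The 4 promoters below carry 3 or 4 copies and belong to members described above, a pair in the first 5 Mb (AT1G07160 and *GLIP4*) and a pair of Berberine family genes (AT1G26380 and AT1G26420). They are read 5′ to 3′ from the TAIR10.1 reference of the Col-0 accession, not from Ler, with capitals for TTGAC or GTCAA. All lie on the minus strand, at chr1:2199774-2200023, chr3:4735994-4736243, chr1:9128569-9128818 and chr1:9143337-9143586 in the order given, and each ends at the base before the annotated start.
AT1G07160: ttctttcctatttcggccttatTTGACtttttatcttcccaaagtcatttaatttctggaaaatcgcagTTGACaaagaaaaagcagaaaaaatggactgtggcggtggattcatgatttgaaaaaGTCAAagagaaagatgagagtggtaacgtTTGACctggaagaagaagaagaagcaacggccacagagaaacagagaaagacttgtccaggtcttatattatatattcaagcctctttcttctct
GLIP4: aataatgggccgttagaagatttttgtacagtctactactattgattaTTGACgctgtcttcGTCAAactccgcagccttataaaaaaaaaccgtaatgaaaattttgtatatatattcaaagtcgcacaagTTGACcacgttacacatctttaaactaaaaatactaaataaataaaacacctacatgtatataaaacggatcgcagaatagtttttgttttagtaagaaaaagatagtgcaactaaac
AT1G26380: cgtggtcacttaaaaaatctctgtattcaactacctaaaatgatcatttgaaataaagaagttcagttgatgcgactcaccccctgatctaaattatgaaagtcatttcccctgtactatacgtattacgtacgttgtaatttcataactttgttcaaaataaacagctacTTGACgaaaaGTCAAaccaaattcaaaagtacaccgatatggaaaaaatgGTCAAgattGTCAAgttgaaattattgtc
AT1G26420: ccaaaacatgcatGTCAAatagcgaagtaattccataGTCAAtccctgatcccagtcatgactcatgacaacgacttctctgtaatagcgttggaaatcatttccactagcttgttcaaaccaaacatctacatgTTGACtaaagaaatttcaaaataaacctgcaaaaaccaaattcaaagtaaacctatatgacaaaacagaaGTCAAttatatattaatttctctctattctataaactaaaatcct

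The copies nearest to the start begin 95 bases before it in AT1G07160, 118 in *GLIP4*, 20 in AT1G26380 and 45 in AT1G26420. Other motifs were searched in a wider window as well. In the window from 250 bases before to 50 bases after the start, TGACG, the core of TGA factor sites, which overlaps the W-box core in TTGACG, was found in 28.8% of members and 22.8% of all genes. CACGTG, the G-box, was found in 3.85% and 6.90%, GCCGCC, the site of ethylene response factors, in 3.85% and 2.72%, and CGCG, part of sites of calmodulin-binding factors, in 12.5% and 13.4%. TTGAC in the same window was found in 66.3% and 50.01%. In the 250 bases before the start alone, TGACG was found in 24.0% of members and 18.2% of all genes. A match of letters is a description of the sequence and not a bound site.

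**Figure D5:**
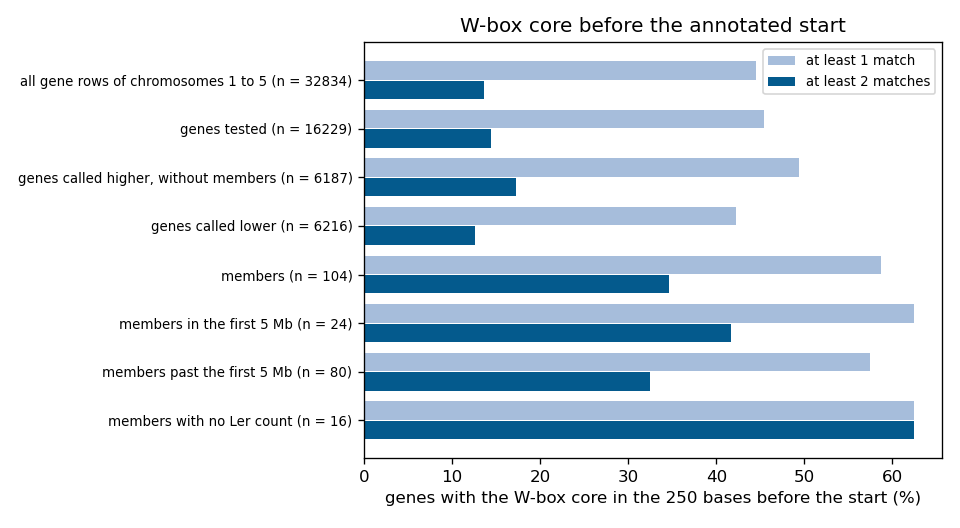
Bars give the percent of genes with the W-box core at least 1 time (light) or at least 2 times (dark) in the 250 bases before the annotated start, for sets of genes with their number. The dark bar is 34.6% for the 104 members, 17.3% for other genes called higher and 13.7% for all gene rows, and the subsets of members hold only 16 to 80 genes.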

How the data were processed

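mRNA of leaves was sequenced as single reads of 75 bases from stranded libraries, 3 Ler and 3 *rse1-1*, grouped by their labels. The authors trimmed reads (Trimmomatic 0.32.3), aligned them with TopHat2 2.0.9 to a Col-0 genome changed to carry Ler-0 variants, dropped duplicate reads (Picard 1.119) and counted uniquely mapped reads with HTSeq 0.6.1. The deposited values are raw counts per gene, with no normalization. The annotation version and the strand setting are not given in the sources used here. Entries that name no gene (47.0% to 48.7% of a library) were left out.

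Genotypes were compared from the counts by edgeR 4.0.16 under R 4.3.3 (scaled by TMM, filterByExpr with a minimum count of 10, quasi-likelihood test, Benjamini-Hochberg adjustment over 16294 genes, threshold 0.05), with no covariate, after the code was tested on simulated data. CPM uses the TMM-scaled library size. The SE of a log2 fold change is its absolute value divided by the square root of the quasi-likelihood F statistic. A ratio compares pooled counts scaled by library size, with an exact interval. The labels number the replicates, the study calls them biological, and p-values measure only the spread between these libraries. Names and positions are those of TAIR10.1, in which 32835 of the 33602 rows were matched by locus. Well counted means a mean of at least 10 counts. Overlapping genes and close copies are uncertain.

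The members and all lists were chosen with earlier results of these data known. Named genes were drawn from the 20 highest members, the 3 highest of each class, neighbouring pairs and members of extreme spread. Genes at the limits, *RSE1* and the 5 highest flanking genes were added. Not every gene of these lists is named. All other genes named were chosen after their values were seen. Alternatives were DESeq2 1.42.0, other scalings, no filter, a replicate block, each library left out, other limits, other distances and other chromosome parts.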

Additional observations from a re-analysis of the deposited data

How the results depend on the processing

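All 104 members were called higher under every alternative fit (DESeq2, RLE and upper quartile scaling, library size alone, no filter, replicate block, and each library left out). The counts of flanking genes called higher ran from 56 to 61 over fits without a library and from 51 to 69 over the other fits, and genes within 2000 bases gave 63. Without a library, genes called higher numbered 6037 to 6336 and lower 5857 to 6210. Upper quartile scaling moved the median of all genes to -0.20 and gave 5112 higher and 7633 lower, so that 40.1% of calls were higher in place of 50.3%. It left 4 other terpenoid enzymes called higher in place of 7.

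The number of members depends on the limits, being 46 with at most 1 count in Ler, 166 with at least 50 in *rse1-1* and 62 with at least 200, and 104 to 133 with a library left out of the rule. Without *rse1-1* replicate 2 it was 133. The first 2.5 Mb of the chromosomes held 15 members and the first 10 Mb 44.

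The replicate numbers did not pair the libraries, with correlations of 0.039, 0.072 and -0.060 between deviations of the same number. The replicate block gave 6298 genes higher and 6248 lower, and a median log2 fold change of 8.81 for the members.

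At this depth a count of 0 in a single Ler library leaves a level of up to 0.258 to 0.304 CPM possible. That limit is for each Ler library alone and not for the Ler libraries pooled.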
